A study of Mus musculus with 12 samples.

Results

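The 10 genes described here are the kinases that phosphorylate the translation factor eIF2alpha, eIF2alpha itself and genes that act directly before or after it. They were taken by symbol from the 24421 genes listed in each of 12 mouse RNA-seq libraries. The kinases are Eif2ak1 (HRI), Eif2ak2 (PKR), Eif2ak3 (PERK) and Eif2ak4 (GCN2). Eif2s1 encodes eIF2alpha and Prkra encodes PACT, an activator of PKR. Atf4 and Ddit3 (CHOP) encode transcription factors of the stress response, and Ppp1r15a (GADD34) and Ppp1r15b (CReP) encode the subunits that direct a phosphatase to eIF2alpha. All 10 were found in every library and all 10 passed the filter on low values in both experiments.

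When eIF2alpha is phosphorylated, most translation initiation falls while the translation of a few mRNAs, Atf4 among them, increases. HRI responds to heme shortage and other stress, PKR to double-stranded RNA, PERK to unfolded protein in the endoplasmic reticulum and GCN2 to amino acid shortage. Eif2ak2 is also a known interferon-stimulated gene. The RNA levels given here say nothing about the phosphorylation of eIF2alpha or about the amount of any protein.

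The libraries came from bone marrow-derived macrophages (BMMs) of mice described as C57BL/6, grown with M-CSF, the macrophage growth factor, for 3 days. In the loss of function experiment WT cells (Mir182+/+LysMcre(+)) and Mir182ΔM/ΔM cells (Mir182flox/floxLysMcre(+)) were kept without RANKL (basal) or given RANKL, the cytokine that drives osteoclast formation, for 5 days. In the gain of function experiment Control cells (LysMcre(+)) and Mir182mTg cells (LSL-Mir182LysMcre(+)), whose transgene is switched on by Cre, were basal only. By these genotypes every group carries LysMcre, which expresses Cre from the lysozyme M promoter and restricts both the deletion and the transgene to myeloid cells. The number of LysMcre copies per mouse is not given. Each of the 6 conditions had 2 libraries, which the study calls biological replicates. The labels do not say whether they came from separate mice or cultures, so the p-values measure the spread between these libraries. The sexes and ages of the mice are not given in the sources used here. In a mixed culture, fewer cells of a type and less RNA per cell cannot be told apart.

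The libraries held 24951280 to 33050619 reads on genes, and 3 reads corresponded to 0.0908 to 0.120 CPM (read counts scaled to the same total in each library). The 7 macrophage markers were each at 1 CPM or more in every library. The summed level of 8 osteoclast markers was 121 to 174 CPM in the basal libraries, 5664 to 5901 CPM in WT cells after RANKL and 1386 to 1447 CPM in Mir182ΔM/ΔM cells after RANKL. Not every marker followed the sum after RANKL. Itgb3 was higher in Mir182ΔM/ΔM than in WT cells (83.1 ± 0.753 against 59.0 ± 1.15 CPM). Calcr was about equal (9.37 ± 0.434 against 9.39 ± 0.552 CPM), and the other markers were lower. T cell and erythroid markers summed to at most 0.680 CPM, B cell markers to at most 3.67 CPM, dendritic cell markers to at most 3.13 CPM, stromal markers to at most 46.4 CPM and neutrophil markers to at most 79.9 CPM. The precursor of miR-182 was listed at 0 in WT and Control libraries and at 2.39 and 4.40 CPM in Mir182mTg libraries. It had 1 read in a single Mir182ΔM/ΔM library, so the deletion cannot be checked with these data. Xist, which female cells express, was at 0.251 CPM or less in every library. The Y-linked Ddx3y was at 77.8 CPM or more in every library, so the levels are those of male cells.

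Both WT RANKL libraries differed from the rest of the loss of function experiment in a way the labels do not give. Lyz2, which encodes lysozyme M, was at 41.9 ± 2.97 CPM (SD, n = 2) in WT basal, 32.9 ± 2.38 CPM in Mir182ΔM/ΔM basal and 23.2 ± 1.04 CPM in Mir182ΔM/ΔM RANKL libraries, but at 4203 ± 121 CPM in WT RANKL libraries. It was at 6199 ± 589 CPM in Control and 6700 ± 512 CPM in Mir182mTg libraries. Ifi202b, an interferon-inducible gene used here as a check of library origin, was at 103 ± 12.9, 91.6 ± 13.4 and 147 ± 6.96 CPM in WT basal, Mir182ΔM/ΔM basal and Mir182ΔM/ΔM RANKL libraries. In WT RANKL libraries it was at 1.04 ± 0.103 CPM and in Control and Mir182mTg libraries at 0 to 0.0908 CPM. In both genes the WT RANKL libraries were closer to the gain of function libraries than to the WT basal ones. For the 10 genes and for the counts of the gene lists, alternatives without these libraries or with Control basal cells as the baseline are therefore given beside the results they touch. The labels do not say whether WT RANKL and WT basal cells came from mice of the same origin, with the same number of LysMcre copies. Whether Lyz2 and Ifi202b followed such a difference, or Ifi202b an interferon response, was not tested. The part of the WT RANKL libraries in the differences described below was not tested.

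The study took Eif2ak2 from these same libraries as a gene higher in Mir182ΔM/ΔM and lower in Mir182mTg cells, so its direction in those comparisons is not independent evidence. It also overlapped its list with published miR-182 targets and measured Eif2ak2 RNA by qPCR and PKR by immunoblot. Those measurements are not part of these libraries. The values of Eif2ak2 are given first. The sequence of mature miR-182 (RefSeq, GRCm38.p6, chr6:30165962-30165986, minus strand) is shown with its seed, bases 2 to 8, in capitals.
mmu-miR-182-5p: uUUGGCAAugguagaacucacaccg

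In the annotated 3′ UTRs of the coding transcripts of each gene (GENCODE vM21, GRCm38), the 8-base site TTGCCAAA and the 7-base site TTGCCAA for this seed occurred in none of the 10 genes, and the 7-base site TGCCAAA occurred in Eif2ak2 and Ppp1r15b. The Eif2ak2 window lies at chr17:78852617-78852645 on the minus strand, and its site starts 2508 bases after the stop codon of a UTR of 2575 bases. The Ppp1r15b window lies at chr1:133138304-133138332 on the plus strand, and its site starts 1431 bases into a UTR of 2896 bases. Both windows are shown with the site in capitals.
Eif2ak2 3′ UTR window: tcaaccgaggcttcTGCCAAAtcttccct
Ppp1r15b 3′ UTR window: atgcccagctggtcTGCCAAActtaacat

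Of 10900 tested genes with a 3′ UTR, 14.9% held TGCCAAA, alone or within TTGCCAAA, so a site in 2 of 10 genes is a description and no enrichment. The longest UTRs of the other 8 genes ranged from 77 bases in Ppp1r15a to 2362 bases in Eif2ak1. The study tested a miR-182 seed site of the Eif2ak2 3′ UTR in a luciferase reporter. It reported that a miR-182 mimic lowered the reporter's activity and that mutating the seed site removed this effect.

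Eif2ak2 (GENCODE vM21, minus strand of chromosome 17, 78852564 to 78882573) had the widest range of the 10 genes, 3.51-fold between its lowest and highest library. Its level in the individual libraries was 121 and 103 CPM in WT basal, 90.0 and 80.5 CPM in WT RANKL, 171 and 156 CPM in Mir182ΔM/ΔM basal and 255 and 246 CPM in Mir182ΔM/ΔM RANKL cells. In the gain of function experiment it was at 121 and 111 CPM in Control and 77.9 and 72.6 CPM in Mir182mTg cells. Both Mir182ΔM/ΔM RANKL libraries were above all others and both Mir182mTg libraries below all others. From low to high, the conditions ran Mir182mTg, WT RANKL, WT basal, Control, Mir182ΔM/ΔM basal and Mir182ΔM/ΔM RANKL, and only the neighbours WT basal and Control overlapped.

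**Figure D1:**
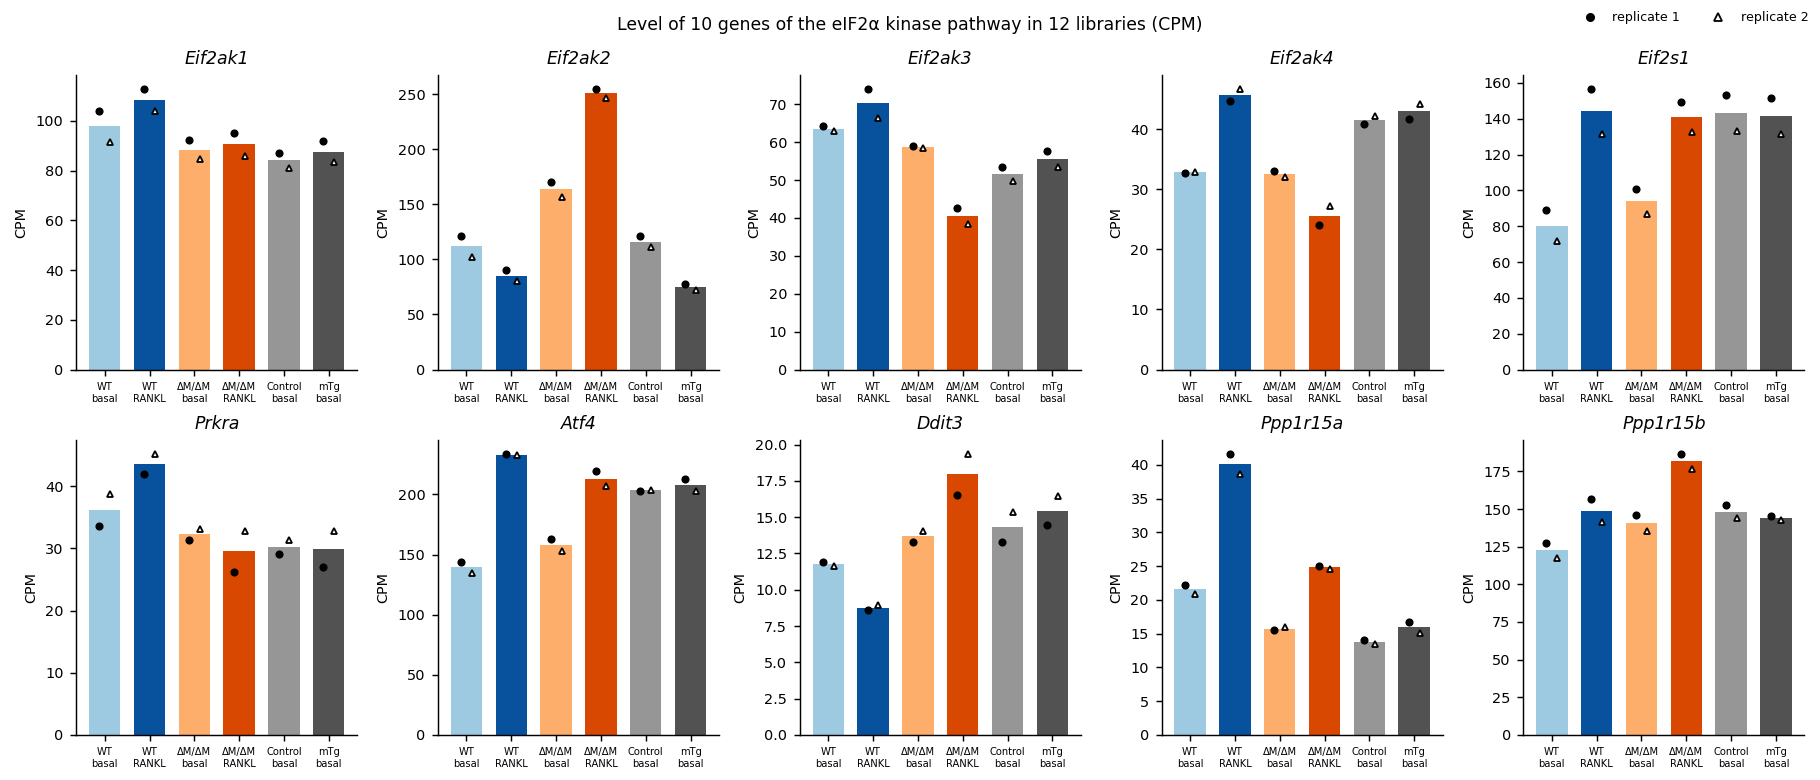
Level of each of the 10 genes in CPM on a linear axis from 0, by condition (ΔM/ΔM stands for Mir182ΔM/ΔM and mTg for Mir182mTg). Bars are the mean of 2 libraries, filled circles replicate 1 and open triangles replicate 2. Eif2ak2 rises to 251 CPM in Mir182ΔM/ΔM RANKL cells, the condition in which Eif2ak3 and Eif2ak4 are lowest.

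Without RANKL, Eif2ak2 was the only kinase that differed between the genotypes. It was 1.46-fold higher in Mir182ΔM/ΔM than in WT cells (163 with an SD of 10.1 against 112 with an SD of 13.2 CPM, n = 2 each). The log2 fold change was 0.55 (standard error 0.0998, limma adjusted p = 0.0317), and within replicate numbers 1 and 2 the difference was 0.49 and 0.60. The call was lost when only the 4 libraries of this comparison were fitted (limma adjusted p = 0.161) or when any single library other than WT basal replicate 1 was left out, with limma adjusted p-values of 0.0501 to 0.211. Without both WT RANKL libraries the log2 fold change was the same and the limma adjusted p was 0.0498. With the replicate number as a block the limma adjusted p was 1.1e-09. The log2 fold changes of the other kinases were -0.14 in Eif2ak1, -0.11 in Eif2ak3 and -0.01 in Eif2ak4. With the block Eif2ak1 was also called lower (limma adjusted p = 0.00631).

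Among the remaining genes Ppp1r15a, whose product returns eIF2alpha to its unphosphorylated form during recovery from stress, was lower in basal Mir182ΔM/ΔM than in WT cells. It was at 22.3 and 20.8 CPM in WT and at 15.5 and 15.9 CPM in Mir182ΔM/ΔM libraries, and the groups did not overlap. Its log2 fold change was -0.43 (standard error 0.080, limma adjusted p = 0.0330), and the call was lost without both WT RANKL libraries (limma adjusted p = 0.0701) and without any single library (limma adjusted p = 0.0663 to 0.211). Thus 1 of 10 genes was called higher and 1 lower, where 2.72% and 1.11% of all 11673 genes tested were. With the replicate block 4 were higher (Atf4, Eif2ak2, Eif2s1 and Ppp1r15b) and 2 lower (Eif2ak1 and Ppp1r15a), against 18.6% and 12.7% of all genes. The blocked limma adjusted p-values were 2.8e-04 for Atf4, 1.1e-04 for Eif2s1 and 1.1e-04 for Ppp1r15b, each with a log2 fold change of 0.18 to 0.23.

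After RANKL the genotypes differed in 7 of the 10 genes, and the kinases moved apart. Eif2ak2 was 2.94-fold higher in Mir182ΔM/ΔM than in WT cells, whereas Eif2ak3 and Eif2ak4 were lower. The log2 fold change of Eif2ak2 was 1.55 (standard error 0.0998, limma adjusted p = 3.0e-05), and it was 1.49 and 1.60 within replicates 1 and 2. Eif2ak3, the endoplasmic reticulum kinase, was at 74.1 and 66.4 CPM in WT and 42.7 and 38.5 CPM in Mir182ΔM/ΔM libraries, with -0.78 as the log2 fold change (limma adjusted p = 3.1e-04). Eif2ak4, the amino acid sensing kinase, was at 44.7 and 46.7 CPM in WT and 24.0 and 27.3 CPM in Mir182ΔM/ΔM libraries, with -0.81 as the log2 fold change (limma adjusted p = 2.6e-04). In each of these 3 genes the ranges of the genotypes did not overlap. That also held for Eif2ak1 and Atf4, which were not called, and the share of all genes without overlap was not determined. Eif2ak1 was at 113 and 104 CPM in WT and 94.9 and 86.0 CPM in Mir182ΔM/ΔM libraries, and its log2 fold change of -0.26 missed the threshold (limma adjusted p = 0.0610) and passed with the replicate block (limma adjusted p = 3.3e-06).

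The PKR activator Prkra was lower in Mir182ΔM/ΔM RANKL than in WT RANKL cells, at 26.2 and 32.9 CPM against 41.9 and 45.2 CPM (log2 fold change -0.55, limma adjusted p = 0.00975). The activator and the kinase thus differed in opposite directions. Eif2s1 was at 149 and 132 CPM in Mir182ΔM/ΔM and 157 and 131 CPM in WT libraries, ranges that overlapped (log2 fold change -0.03). It was called higher with the block and TMM scaling together (log2 fold change 0.12, limma adjusted p = 0.00629).

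Atf4 and Ddit3, which act in succession in the stress response, did not move together after RANKL. Atf4 was at 219 and 207 CPM in Mir182ΔM/ΔM and 234 and 232 CPM in WT libraries (log2 fold change -0.13, limma adjusted p = 0.150). It was called lower with the replicate block (limma adjusted p = 0.00149), but not with the block and TMM scaling together, where the log2 fold change was 0.02. Ddit3 was at 16.6 and 19.4 CPM in Mir182ΔM/ΔM and 8.62 and 8.92 CPM in WT libraries, 2.05-fold higher with no overlap (log2 fold change 0.95, standard error 0.099, limma adjusted p = 2.8e-04). Its lowest library held 216 reads. The phosphatase subunits differed in opposite directions. Ppp1r15a was lower, at 25.0 and 24.6 CPM against 41.6 and 38.7 CPM (log2 fold change -0.67, limma adjusted p = 5.2e-04), and Ppp1r15b was higher, at 187 and 177 CPM against 156 and 141 CPM (log2 fold change 0.29, limma adjusted p = 0.0244).

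Of these calls, that of Prkra was lost without Mir182ΔM/ΔM RANKL replicate 1 or WT RANKL replicate 2 (limma adjusted p = 0.0504 and 0.0563). That of Ppp1r15b was lost without either Mir182ΔM/ΔM RANKL replicate (limma adjusted p = 0.118 and 0.0562) or WT RANKL replicate 2 (0.136). In all, 3 of the 10 genes were called higher and 4 lower in Mir182ΔM/ΔM cells after RANKL, against 14.3% and 30.9% of all genes. TMM scaling, which removes a shift of all genes, changed this background to 20.9% higher and 20.2% lower and left the members' counts at 3 and 4. The median log2 fold change of all genes moved with it from -0.14 to 0.00, and that of the 10 genes from -0.19 to -0.04. The summed osteoclast markers were also lower in the same Mir182ΔM/ΔM libraries (1386 to 1447 against 5664 to 5901 CPM), although Itgb3 was higher and Calcr about equal. The part of these markers in the differences was not tested. This comparison has no value without the WT RANKL libraries.

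**Figure D2:**
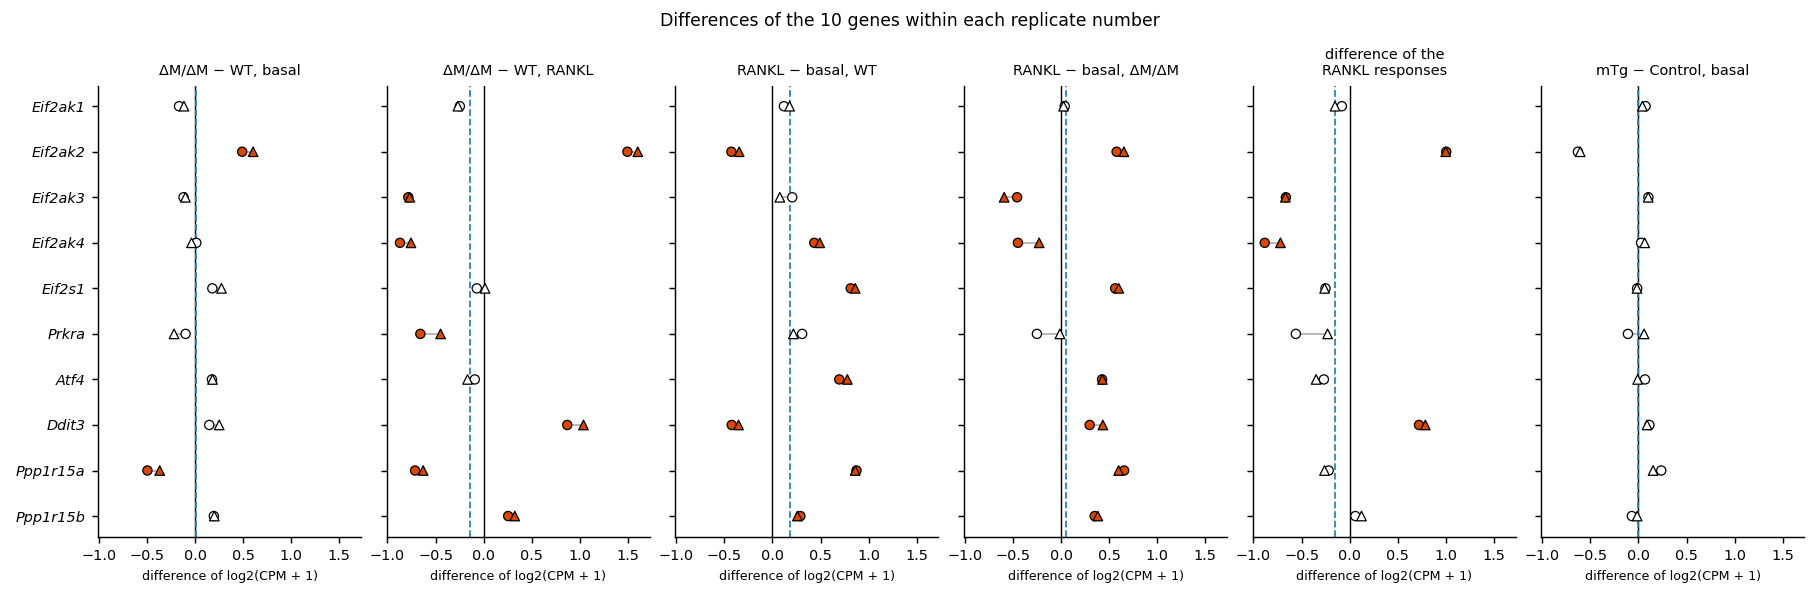
Differences of log2(CPM + 1) within replicate 1 (circles) and replicate 2 (triangles) for the 10 genes in the 6 comparisons; orange marks an adjusted p under 0.05 in the fit without the replicate block. The dashed line is the median of all genes tested. Eif2ak2 lies at 1.49 and 1.60 after RANKL, where Eif2ak3 and Eif2ak4 lie between -0.87 and -0.76, and at -0.63 and -0.60 in Mir182mTg against Control cells.

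The response to RANKL was compared in each genotype. In Mir182ΔM/ΔM cells, a comparison that does not rest on the WT RANKL libraries, Eif2ak2 was 1.53-fold higher after RANKL (log2 fold change 0.61, standard error 0.0998, limma adjusted p = 0.00155) and Eif2ak3 and Eif2ak4 were lower. Eif2ak3 went from 58.9 and 58.5 CPM to 42.7 and 38.5 CPM (log2 fold change -0.52, limma adjusted p = 0.00134). Eif2ak4 went from 33.1 and 32.1 CPM to 24.0 and 27.3 CPM (log2 fold change -0.34, limma adjusted p = 0.0111). Eif2ak1 was at 92.4 and 84.4 CPM before and 94.9 and 86.0 CPM with RANKL, and Prkra at 31.3 and 33.1 CPM before and 26.2 and 32.9 CPM with it. Neither was called, and in both the ranges overlapped. With the block and TMM scaling together Prkra was called lower (-0.17, limma adjusted p = 0.0154).

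In the same cells Eif2s1, Atf4, Ddit3, Ppp1r15a and Ppp1r15b each rose with RANKL. Eif2s1 rose from 93.9 ± 9.61 to 141 ± 11.8 CPM, by 0.58 on the log2 scale (limma adjusted p = 0.00939). Atf4 rose from 158 ± 6.73 to 213 ± 8.68 CPM, by 0.43 (limma adjusted p = 0.00121). Ddit3 rose from 13.7 ± 0.554 to 18.0 ± 1.98 CPM, by 0.37 (limma adjusted p = 0.0163). For Ppp1r15a and Ppp1r15b the log2 fold changes were 0.63 and 0.37 (limma adjusted p = 4.6e-04 and 0.00682). With 6 of 10 genes higher and 2 lower, the shares of all genes were 30.5% and 26.3%. All 8 calls held without both WT RANKL libraries. The calls of Eif2ak4 and Eif2s1 were lost without Mir182ΔM/ΔM RANKL replicate 1 (limma adjusted p = 0.0649 and 0.0593), that of Eif2ak4 also without Mir182ΔM/ΔM basal replicate 1 (0.0613) and that of Eif2s1 without basal replicate 2 (0.0581). The call of Ddit3 was lost without Mir182ΔM/ΔM basal replicate 1 or RANKL replicate 2 (limma adjusted p = 0.0861 and 0.0967). The summed osteoclast markers rose from 146 to 174 CPM to 1386 to 1447 CPM in the same libraries, and their part in these changes was not tested.

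In WT cells RANKL went with the opposite direction for several of these genes. Eif2ak2 was at 0.762 times its basal level after RANKL (log2 fold change -0.39, standard error 0.0998, limma adjusted p = 0.0121), with -0.43 and -0.34 within replicates 1 and 2. The call was lost without WT basal replicate 1 (-0.27, limma adjusted p = 0.0668) or WT RANKL replicate 2 (-0.31, limma adjusted p = 0.0721). Ddit3 went from 11.9 and 11.7 CPM to 8.62 and 8.92 CPM (log2 fold change -0.39, limma adjusted p = 0.0116). Eif2ak4 went from 32.8 and 32.9 CPM to 44.7 and 46.7 CPM (log2 fold change 0.46, limma adjusted p = 0.00223). Eif2s1 was 1.79-fold, Atf4 1.67-fold, Ppp1r15a 1.86-fold and Ppp1r15b 1.21-fold higher after RANKL, with log2 fold changes of 0.84, 0.74, 0.87 and 0.28. The call of Ddit3 was lost without WT basal or WT RANKL replicate 1 (limma adjusted p = 0.0509 and 0.0580), and that of Ppp1r15b without WT basal replicate 2 or WT RANKL replicate 1 (0.109 and 0.122). Thus 5 of 10 genes were called higher and 2 lower, against 40.6% and 22% of all genes. TMM scaling moved the median log2 fold change of all genes from 0.19 to 0.00 and the background to 28.8% higher and 30.5% lower. It left 4 genes higher and 2 lower, Ppp1r15b being lost at a log2 fold change of 0.07. Eif2ak1, Eif2ak3 and Prkra were called higher with the replicate block, with log2 fold changes of 0.15, 0.14 and 0.26 that were below or near that median shift, and with the block and TMM scaling together none of these 3 was called.

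With Control basal cells as the baseline for the WT RANKL libraries, an alternative chosen after seeing the data, 5 genes were higher and 2 lower, against 29.6% and 23.1% of all genes, but the genes called were not all the same. Eif2ak2 (log2 fold change -0.44, limma adjusted p = 0.0036) and Ddit3 (-0.65, limma adjusted p = 7.0e-04) were lower with either baseline, and Ppp1r15a was higher with either (1.48 here). Eif2s1 lost its change, at 143 ± 14.2 CPM in Control basal and 144 ± 18.1 CPM in WT RANKL cells (log2 fold change 0.01, limma adjusted p = 0.965). Ppp1r15b also lost it (0.00, limma adjusted p = 0.972), Eif2ak4 was no longer called (0.14, limma adjusted p = 0.157), and the log2 fold change of Atf4 was 0.20 (limma adjusted p = 0.0185; 0.161 with TMM scaling). Eif2ak1, Eif2ak3 and Prkra were instead called higher, with log2 fold changes of 0.36, 0.44 and 0.51. The values of Eif2s1, Atf4, Eif2ak4 and Ppp1r15b in WT RANKL cells were therefore nearer to those of Control basal than of WT basal cells.

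The response itself differed between the genotypes for 4 genes, 2 in each direction, by the interaction term of the fit. The log2 response of Mir182ΔM/ΔM minus that of WT cells was 1.0 for Eif2ak2 (standard error 0.141, limma adjusted p = 0.00240), 0.75 for Ddit3 (limma adjusted p = 0.00803), -0.67 for Eif2ak3 (limma adjusted p = 0.00629) and -0.80 for Eif2ak4 (limma adjusted p = 0.00291). Within replicates 1 and 2 the Eif2ak3 term was -0.66 and -0.67 and the Eif2ak4 term -0.88 and -0.72. The background was 7.46% higher and 17.2% lower, and with TMM scaling 10.6% and 10.9% with the same 2 and 2 genes. With the replicate block 2 genes were higher and 6 lower, the latter adding Atf4 (-0.31), Eif2s1 (-0.26), Ppp1r15a (-0.24) and Prkra (-0.39), against 16.1% and 42.8% of all genes. With the block and TMM scaling together Atf4 and Prkra were still called, Eif2s1 and Ppp1r15a were not, and Ppp1r15b was called higher (0.26, limma adjusted p = 1.0e-04). No interaction can be computed without the WT RANKL libraries.

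In the gain of function experiment Eif2ak2 was lower in Mir182mTg than in Control cells, at 0.649 times the Control level, and the libraries of the groups did not overlap. The log2 fold change was -0.63 (standard error 0.086), with -0.63 and -0.60 within replicates 1 and 2. It missed the threshold without the replicate block (edgeR quasi-likelihood adjusted p = 0.0848, unadjusted p = 5.3e-04) and passed with it (edgeR adjusted p = 3.9e-09). DESeq2 without the block also called it (adjusted p = 2.4e-04), as did edgeR without Control replicate 2 (-0.69, adjusted p = 0.00188) or without a filter on low values (adjusted p = 0.0173). The other 9 genes were each within a log2 fold change of -0.05 to 0.20, and none was called with or without the block. The counts were thus 0 higher and 0 lower without the block, against 0.0995% and 0.158% of 12063 genes, and 0 higher and 1 lower with it, against 6.97% and 8.24%. At an unadjusted p under 0.05 edgeR without the block had Eif2ak2 only. Ppp1r15a had the next largest difference, at 14.02 and 13.5 CPM in Control and 16.7 and 15.1 CPM in Mir182mTg cells (log2 fold change 0.20, edgeR adjusted p = 0.894, and 0.0895 with the block). Ppp1r15b, the other gene with a TGCCAAA site, had a log2 fold change of -0.05 (standard error 0.072) and was 1.15-fold and 1.22-fold higher in Mir182ΔM/ΔM than in WT cells without and after RANKL.

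The levels of the kinases were also set against each other. Per kilobase of transcript (RPKM, with 1 fixed length per gene), the order in WT basal cells was Eif2ak1 with 38.0 ± 3.38, Eif2ak2 with 25.9 ± 3.06, Eif2ak3 with 14.1 ± 0.204 and Eif2ak4 with 6.26 ± 0.0229 RPKM, and no neighbours in this order overlapped. In Mir182ΔM/ΔM RANKL cells Eif2ak2 came first with 58.0 ± 1.43 RPKM, above Eif2ak1 with 35.2 ± 2.45, and Eif2ak4 remained last with 4.88 ± 0.443 RPKM. Eif2ak2 was above Eif2ak1 in both Mir182ΔM/ΔM conditions and below it in the other 4. Of the 10 genes Atf4 had the highest level per length in every condition, between 80.7 and 135 RPKM.

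The log2 ratio of Eif2ak2 to Eif2ak1 in CPM was 0.19 ± 0.042 in WT basal, -0.35 ± 0.027 in WT RANKL, 0.89 ± 0.003 in Mir182ΔM/ΔM basal and 1.47 ± 0.065 in Mir182ΔM/ΔM RANKL cells. In Control and Mir182mTg cells it was 0.46 ± 0.011 and -0.22 ± 0.029. Over the 4 Mir182ΔM/ΔM and 4 WT libraries the ratio was higher in Mir182ΔM/ΔM by 1.26 to Eif2ak1, 1.51 to Eif2ak3 and 1.48 to Eif2ak4, with no overlap of the 4 and 4 libraries for any of them. The two-sided exact permutation p was 0.0286 in each case, the smallest that 4 against 4 libraries allow. After adjustment over the 6 ratio tests this permutation p was 0.0571, which does not pass. The genotype and RANKL groupings of the same kinase cannot both reach the smallest p. The adjusted value could therefore not fall under 0.05 whatever the data, and the miss decides nothing. Between the 4 RANKL and 4 basal libraries the ratios differed by 0.02 to 0.31 (exact permutation p = 0.629 to 0.914). In those groups the ratio moved in opposite directions in the genotypes, so that the RANKL libraries spread from -0.37 to 1.52 for Eif2ak1. Leaving out the WT RANKL libraries unbalances both of these comparisons, so like groups were set against each other instead, a choice made after seeing the data. Between the basal libraries alone the log2 ratio was higher in Mir182ΔM/ΔM than in WT cells by 0.69 to Eif2ak1, 0.66 to Eif2ak3 and 0.56 to Eif2ak4. Within Mir182ΔM/ΔM cells it was higher after RANKL by 0.59, 1.15 and 0.97. These differences of 2 against 2 libraries were not tested.

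**Figure D3:**
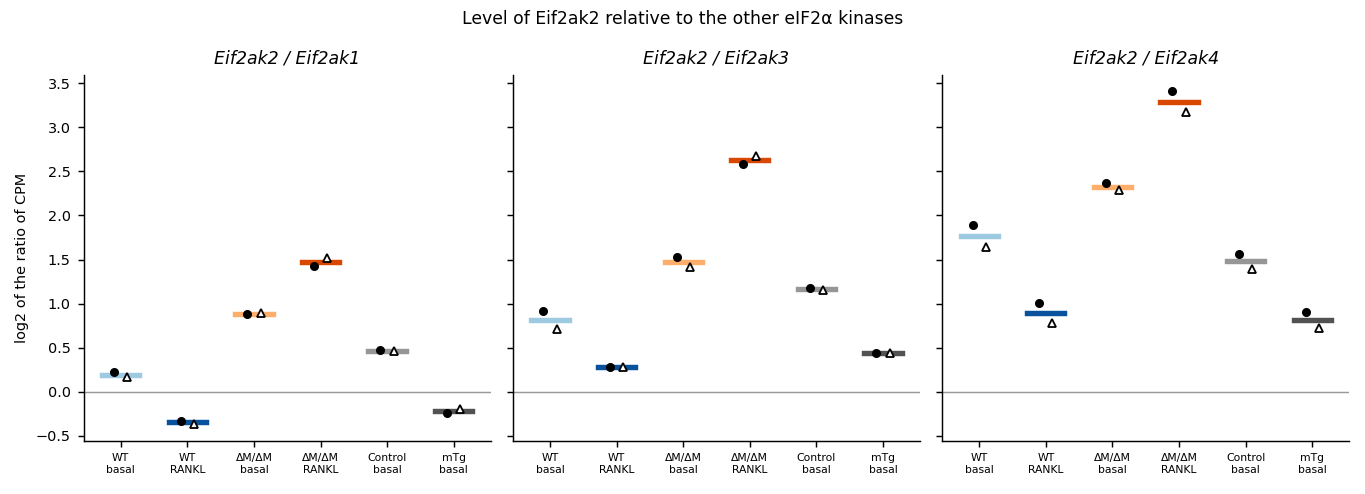
Log2 of the ratio of the CPM of Eif2ak2 to that of Eif2ak1, Eif2ak3 and Eif2ak4 in each library; circles are replicate 1, triangles replicate 2 and coloured bars the mean of 2 libraries. The ratio is highest in Mir182ΔM/ΔM RANKL cells in each panel, at 1.47, 2.63 and 3.29, and the Mir182mTg libraries lie below the Control libraries.

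Genes with the pattern most like that of Eif2ak2 were named by Pearson's r over the 12 libraries, on log2(CPM + 1), among 11776 genes. They were Oasl2 (r = 0.971), Oas3 (0.965), Phf11a (0.962), Phf11b (0.962), Trim30a (0.961) and Sdc3 (0.960). The 12 points share library depth and replicate number and form 6 pairs, so r is a description. Oasl2 and Oas3 belong to the oligoadenylate synthetase family, which like PKR is tied to double-stranded RNA. Oas3 was at 92.3 ± 1.79 CPM in WT basal, 62.7 ± 0.883 in WT RANKL, 224 ± 6.69 in Mir182ΔM/ΔM basal and 798 ± 6.88 CPM in Mir182ΔM/ΔM RANKL cells, and at 89.2 ± 2.74 and 62.0 ± 1.12 CPM in Control and Mir182mTg cells. Its highest condition was Mir182ΔM/ΔM RANKL, as for Eif2ak2, while its libraries of Mir182mTg and WT RANKL overlapped at the low end. Sdc3, which encodes syndecan-3, had 1015 ± 66.4 CPM in WT basal and 2983 ± 294 CPM in Mir182ΔM/ΔM RANKL cells. Across the members themselves the r with Eif2ak2 was -0.90 for Eif2ak4, -0.68 for Eif2ak3, -0.19 for Eif2ak1, 0.53 for Ddit3 and 0.58 for Ppp1r15b. That of Eif2s1 with Atf4 was 0.95.

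**Figure D4:**
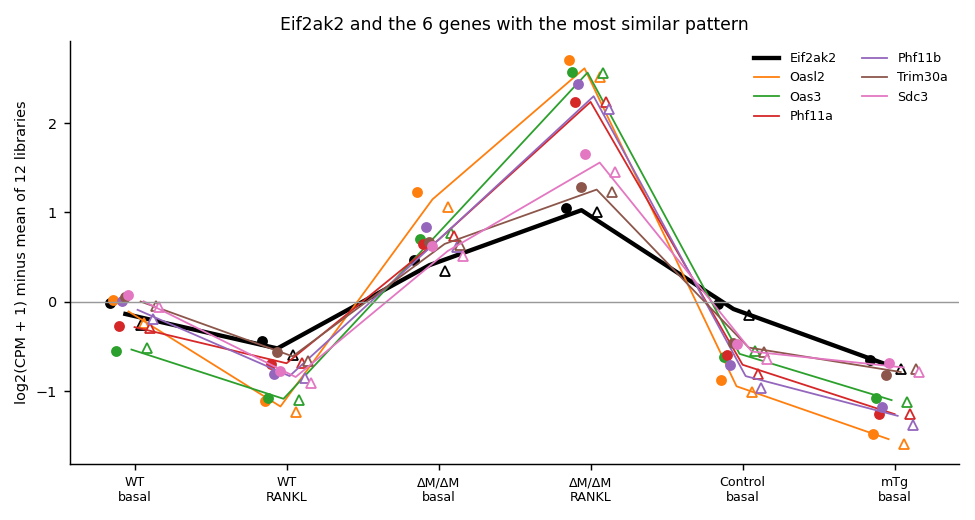
Level of Eif2ak2 (black) and of the 6 genes with the highest Pearson's r to it, as log2(CPM + 1) minus the gene's mean over the 12 libraries. Filled circles are replicate 1, open triangles replicate 2, and lines join the means of the 6 conditions, which have no order. Each gene is highest in Mir182ΔM/ΔM RANKL cells.

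An interferon-responsive motif was searched in the promoters (RefSeq, GRCm38.p6, 250 bases before to 50 bases after the start of transcription). The motif consists of GAAA, any 2 bases and GAAA again, on either strand. It was found in 3 of the 9 members with a promoter sequence and in 10 of the 15 interferon-stimulated genes, of those listed below, that had one. Counted per promoter and not per gene, it was in 3.44% of 32851 promoters. The windows are chr17:78882535-78882564 (minus strand), chr12:78861850-78861879 (plus strand) and chr7:45526469-45526498 (minus strand), with the motif in capitals; it starts 18 bases after the start of transcription in Eif2ak2 and 212 and 220 bases before it in Eif2s1 and Ppp1r15a.
Eif2ak2 promoter window: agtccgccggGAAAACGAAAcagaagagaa
Eif2s1 promoter window: cctggagcaaGAAACAGAAActtacctctc
Ppp1r15a promoter window: aaaataaaagGAAAGGGAAAtggcacggta

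The letters TGATGNAA, as in elements bound by ATF4, and CCAAT followed after any 9 bases by CCACG, as in endoplasmic reticulum stress elements, were in no promoter of the 9 members and in 3.97% and 0.119% of all promoters. A match is a description of letters and no evidence of binding.

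Of the 21 genes in the list of interferon-stimulated genes 20 were tested, and Ifnb1, which encodes interferon-beta, was under the filter. Without RANKL 18 were higher in Mir182ΔM/ΔM than in WT cells and none lower, with a median log2 fold change of 1.21 against 0.01 for all genes. Of all genes 2.72% were higher and 1.11% lower. After RANKL all 20 were higher, with a median of 3.64, against 14.3% of all genes. RANKL raised all 20 in Mir182ΔM/ΔM cells (median 1.52), against 30.5% of all genes. Irf7, an interferon regulatory factor, went from 151 ± 6.13 to 1326 ± 41.2 CPM there. Cxcl10, a chemokine, went from 13.95 ± 0.740 to 508 ± 12.6 CPM. In WT cells 2 of the 20 rose with RANKL and 12 fell (median -0.46), but with Control basal cells as the baseline 11 rose and 2 fell (median 0.37). Of all genes 40.6% rose and 22% fell, and with that baseline 29.6% and 23.1%. The direction of this list in WT cells thus depended on the baseline, whereas that of Eif2ak2 was lower with both. In Mir182mTg against Control cells only Zbp1, a sensor of Z-form nucleic acid, was called lower without the block (3.95 ± 0.111 against 9.97 ± 0.527 CPM, edgeR adjusted p = 0.0449), and 15 of 20 were lower with it, with a median of -0.34. Of all genes 0.158% were lower without the block and 8.24% with it. The study named several of the interferon-stimulated genes from the same libraries.

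**Figure D5:**
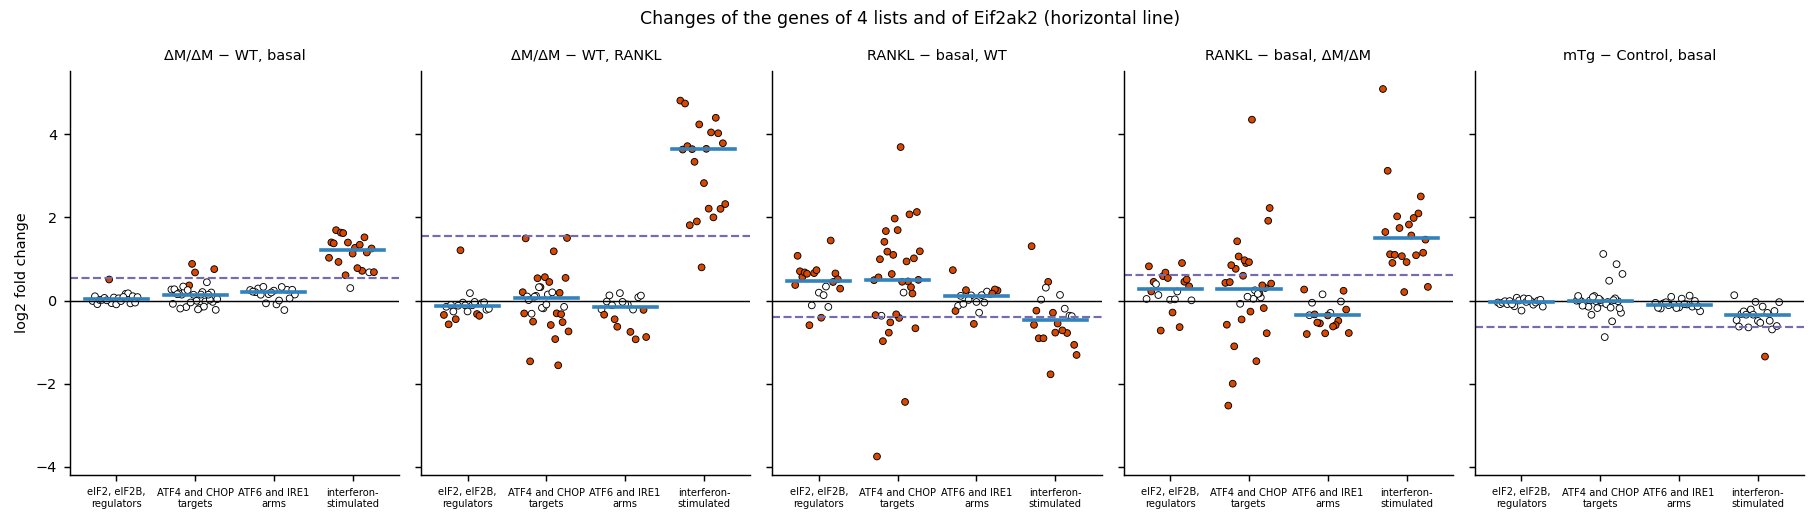
Log2 fold change of each tested gene of the 4 lists in 5 comparisons, orange where the adjusted p was under 0.05 without the replicate block, with the list's median as a blue bar and the value of Eif2ak2 as a dashed line. The interferon-stimulated genes lie at a median of 1.21 and 3.64 in Mir182ΔM/ΔM against WT cells, above Eif2ak2 at 0.55 and 1.55, and the other lists stay nearer to 0.

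The list of eIF2 partners, the exchange factor eIF2B and regulators of the kinases (20 genes, all tested) had 1 gene higher in basal Mir182ΔM/ΔM cells and none lower, and 1 higher and 5 lower after RANKL (median -0.13, against -0.14 for all genes). With TMM scaling the latter counts were 2 and 1, and with the replicate block 2 and 13. Of all genes 2.72% were higher and 1.11% lower without RANKL, and 14.3% and 30.9% after it (20.9% and 20.2% with TMM scaling). With the block 2737 of all 11673 genes were higher and 5809 lower after RANKL. The listed gene higher both without and after RANKL was Adar, an interferon-inducible enzyme that edits double-stranded RNA and limits the activation of PKR. Its level was 133 ± 5.92 and 189 ± 10.7 CPM in basal WT and Mir182ΔM/ΔM cells and at 123 ± 2.56 and 286 ± 23.9 CPM with RANKL, 1.21 apart on the log2 scale (limma adjusted p = 3.4e-05). RANKL raised 13 of the 20 genes and lowered 2 in WT cells, where 40.6% and 22% of all genes were called. With TMM scaling the counts were 8 and 4, against 28.8% and 30.5% of all genes. With Control basal cells as the baseline they were 8 and 2, against 29.6% and 23.1%. In Mir182ΔM/ΔM cells 10 rose and 3 fell (9 and 3 without the WT RANKL libraries), against 30.5% and 26.3% of all genes. The largest rise was in Eif2b3, a subunit of the exchange factor that eIF2alpha phosphorylation inhibits, from 11.2 ± 0.464 to 32.3 ± 0.639 CPM in WT and from 12.9 ± 2.31 to 24.9 ± 1.19 CPM in Mir182ΔM/ΔM cells. Against Control basal cells its log2 fold change in WT RANKL cells was 0.36 in place of 1.45. Dnajc3, an inhibitor of PKR and PERK, had an interaction term of -0.49 (limma adjusted p = 0.0191), which was not called with TMM scaling (-0.32, limma adjusted p = 0.0812). No gene of the list was called in Mir182mTg cells by edgeR without the block (0 at an unadjusted p under 0.05). With the block 3 were lower, against 8.24% of all genes.

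Of 35 targets of ATF4 and CHOP 32 were tested. In basal Mir182ΔM/ΔM cells 4 were higher than in WT cells and none lower, against 2.72% and 1.11% of all genes (3 and none without the WT RANKL libraries, 15 and 1 with the replicate block). With the block 18.6% of all genes were higher and 12.7% lower. Asns, asparagine synthetase, was at 23.1 ± 0.204 against 12.04 ± 0.256 CPM (log2 fold change 0.88, limma adjusted p = 0.00168). Slc7a5, an amino acid transporter, Mthfd2, a mitochondrial folate enzyme, and Psat1, an enzyme of serine synthesis, had log2 fold changes of 0.76, 0.68 and 0.37. The call of Psat1 was lost without the WT RANKL libraries (limma adjusted p = 0.0854). Atf4 itself had 0.18 there and was called only with the block. After RANKL 10 of the 32 were higher and 10 lower in Mir182ΔM/ΔM cells (median 0.05), and 14 and 7 with TMM scaling. Of all genes 14.3% were higher and 30.9% lower (20.9% and 20.2% with TMM scaling). Nupr1, a stress-induced transcription regulator, was higher, at 41.4 ± 4.90 against 13.9 ± 1.42 CPM, and so was Atf3, a transcription factor of the stress response (log2 fold changes 1.51 and 1.19). Slc7a11, the cystine transporter, was lower, at 2.56 ± 0.230 against 5.78 ± 0.689 CPM, and Psph, an enzyme of serine synthesis, fell by 0.59 on the log2 scale. The genes of this list therefore did not share a direction.

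RANKL itself went with large changes in this list in both genotypes. In WT cells 21 genes rose and 9 fell (11 and 11 with Control basal cells as the baseline), and in Mir182ΔM/ΔM cells 17 rose and 9 fell (15 and 9 without the WT RANKL libraries). Of all genes 40.6% rose and 22% fell in WT cells (29.6% and 23.1% with that baseline). In Mir182ΔM/ΔM cells the shares were 30.5% and 26.3%. Vldlr, a lipoprotein receptor, was at 0.480 ± 0.0558 CPM in basal and 18.1 ± 0.0392 CPM in RANKL-treated WT cells and at 0.279 ± 0.0246 and 25.1 ± 2.01 CPM in Mir182ΔM/ΔM cells. Gdf15, a secreted stress factor, went the other way, from 23.1 ± 6.01 to 0.769 ± 0.185 CPM in WT and from 27.7 ± 2.56 to 3.98 ± 0.176 CPM in Mir182ΔM/ΔM cells. Both genes kept their direction and call in WT RANKL cells against Control basal cells. Nupr1 had the largest positive interaction term of the list, 1.73 (limma adjusted p = 0.00108), and Asns the largest negative term, -1.07 (limma adjusted p = 4.3e-04). In Mir182mTg cells none was called by edgeR without the block (3 at an unadjusted p under 0.05). With the block 3 were higher and 4 lower, against 6.97% and 8.24% of all genes. Gdf15 was at 18.4 ± 3.48 against 9.93 ± 0.140 CPM in Control cells (edgeR adjusted p = 7.7e-06 with the block).

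The list of the ATF6 and IRE1 arms, the branches of the unfolded protein response that do not act through eIF2alpha, had 18 genes, all tested. No gene was called between the genotypes without RANKL in limma without the block (9 of 18 at an unadjusted p under 0.05). With the block 13 were higher and 1 lower, against 18.6% and 12.7% of all genes. After RANKL 7 were lower in Mir182ΔM/ΔM cells and none higher (5 and 2 with TMM scaling, 11 and 3 with the block, 6 and 7 with both). Of all genes 30.9% were lower and 14.3% higher (20.2% and 20.9% with TMM scaling). With the block 5809 of all 11673 genes were lower and 2737 higher, and with both 4000 were lower and 4099 higher. Herpud1 and Edem1, which serve the degradation of misfolded protein, were at 40.7 ± 2.84 against 78.4 ± 0.589 CPM and at 259 ± 11.7 against 476 ± 2.01 CPM. Xbp1, the transcription factor of the IRE1 arm, was at 111 ± 0.876 against 187 ± 1.34 CPM (log2 fold change -0.75, limma adjusted p = 5.5e-05). In Mir182ΔM/ΔM cells RANKL lowered 11 of the 18 and raised 2 (median -0.35 against 0.05 for all genes), and 10 and 2 without the WT RANKL libraries in the fit. The shares of all genes were 26.3% lower and 30.5% higher. In WT cells 5 rose and 2 fell (1 and 3 with TMM scaling), but with Control basal cells as the baseline 4 rose and 9 fell (median -0.37). Of all genes 40.6% rose and 22% fell (28.8% and 30.5% with TMM scaling), and with that baseline 29.6% and 23.1%. The interaction term was called negative for 9 genes and positive for none (6 and none with TMM scaling, 14 and none with the block, 10 and 2 with both). Of all genes 17.2% were negative and 7.46% positive (10.9% and 10.6% with TMM scaling, 42.8% and 16.1% with the block). With both, 2887 of all 11673 genes were negative and 3160 positive. In Mir182mTg cells none was called by edgeR without the block (1 at an unadjusted p under 0.05). With the block 10 were lower, at a median of -0.10, against 8.24% of all genes.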

How the data were processed

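RNA-seq of 12 libraries from 6 conditions was analysed. Per the study's methods, the authors mapped reads to mm10 with TopHat or HISAT2 and obtained counts with HTSeq, RPKM with Cufflinks and CPM with edgeR. The loss of function files were deposited by the authors as CPM, and the gain of function files as read counts per gene. RPKM values were deposited by the authors for replicate 1 only, and RPKM of replicate 2 was computed here with the same gene lengths. Replicate 1 is labelled poly-A and replicate 2 total RNA, while the protocol of both describes poly-A selection. Rn45s, the ribosomal RNA precursor, was at 742 to 1176 CPM in the replicate 1 libraries and 9778 to 21273 CPM in the replicate 2 libraries. The replicates thus differed in ribosomal RNA content, and the cause was not tested. Of 24421 rows 27 carried a date in place of the gene's name and were left out. Libraries held 24951280 to 33050619 reads. Values after ± are the SD between 2 libraries, and the floor of 3 reads covers counting error only.

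The CPM values gave whole reads in 100% of cases within 0.01 of a read. log2(CPM + 1) was tested with limma 3.58.1 (R 4.3.3) in 1 fit over 4 groups for genes at 1 CPM or more in at least 2 libraries. Counts were tested with edgeR 4.0.16 (quasi-likelihood, TMM). P-values were adjusted by Benjamini-Hochberg over all genes tested, with a threshold of 0.05 and no fold minimum. The 1 added to CPM makes the fitted fold changes of low genes too small. The scripts were tested on simulated data.

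The labels number the replicates, and the label of poly-A or total RNA goes with that number. The deviations of same-numbered libraries correlated at 0.69 to 0.758 in all 15 pairs of conditions. A replicate block was therefore fitted as an alternative. Others were TMM or quantile scaling, another pseudocount, other filters, edgeR on recovered reads, DESeq2 1.42.0 and leaving out libraries. Kinase ratios were tested by exact permutation, two-sided.

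All 10 members are named. Of each list up to 4 genes per comparison could be named, those called with the largest log2 fold change and 5 CPM or more in the higher group. Oas3 and Sdc3 were taken from the 6 genes most like Eif2ak2. The members and lists were chosen with earlier results of these data known. Lyz2 and Ifi202b were chosen as checks in the same way.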

Additional observations from a re-analysis of the deposited data

Results flagged for a closer look

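The response to RANKL differed between the genotypes for 4 of the 10 genes by the interaction term of the limma fit, given as the log2 change with RANKL in Mir182ΔM/ΔM cells minus that in WT cells. For Eif2ak2 this difference was 1.0, from a log2 change of -0.39 in WT and 0.61 in Mir182ΔM/ΔM cells (limma adjusted p = 0.00240). For Ddit3 it was 0.75, from -0.39 and 0.37 (limma adjusted p = 0.00803). For Eif2ak4 it was -0.80, from 0.46 and -0.34 (limma adjusted p = 0.00291). For Eif2ak3 it was -0.67, from 0.14, which was not called, and -0.52 (limma adjusted p = 0.00629). All 4 terms rest on the WT RANKL libraries.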

How the results depend on the processing

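With the replicate block the number of members called went from 2 to 6 without RANKL (7 with the block and TMM scaling or with edgeR on recovered reads and the block), from 4 to 8 for the interaction (7 and 7 likewise) and from 0 to 1 in Mir182mTg cells. It changed no other call than those given beside the results. In Mir182mTg cells DESeq2 and no filter on low values also gave 1, and single libraries left out gave 0 to 1. Without RANKL the number was 1 with no filter, 0 with only the libraries of the contrast, 1 without both WT RANKL libraries and 0 to 1 with single libraries left out. Of all 11673 genes, the block with TMM scaling called 3640 without RANKL and 6047 for the interaction. The edgeR fit on recovered reads with the block called 3690 and 5927 of 12561 genes.

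The Eif2ak2 log2 fold change without RANKL was 0.546 but not called with no filter (limma adjusted p = 0.0511) or only the libraries of the contrast, and 0.427 to 0.666 with single libraries left out. Its change with RANKL in WT cells ranged from -0.505 to -0.266. In Mir182mTg cells it was -0.638 with DESeq2, -0.632 with no filter, -0.633 with the block and -0.690 to -0.573 with single libraries left out.

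Sign changes occurred in values near 0. The Eif2ak1 interaction was 0.0540 with edgeR on recovered reads, 0.0530 with its block and 0.0507 with TMM scaling, with or without the block. In the same order, Eif2s1 after RANKL was 0.121, 0.122 and 0.124 in Mir182ΔM/ΔM against WT cells (0.000665 with quantile scaling), Atf4 there 0.0233, 0.0225 and 0.0231, Eif2ak1 with RANKL in Mir182ΔM/ΔM cells -0.00926, -0.00966 and -0.00667 (-0.0179 with quantile scaling), Eif2ak1 in WT cells -0.0632, -0.0627 and -0.0574, and Eif2ak3 in WT cells -0.0665, -0.0660 and -0.0638 (-0.0128 with quantile scaling). With Control basal cells as the baseline and TMM scaling, chosen after seeing the data, Eif2s1 was -0.0803 and Ppp1r15b -0.0854. TMM scaling removes the shift of the median of all genes given in the report.

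With single libraries left out, values ranged from -0.157 to 0.0982 for Eif2s1 after RANKL between genotypes, -0.0332 to 0.00932 for Eif2ak4 without RANKL, -0.0381 to 0.102 for Eif2ak1 and -0.290 to 0.0271 for Prkra with RANKL in Mir182ΔM/ΔM cells. In Mir182mTg cells they ranged from -0.0275 to 0.122 for Eif2ak1, -0.000161 to 0.0747 for Eif2ak4, -0.134 to 0.0784 for Eif2s1, -0.174 to 0.0995 for Prkra, -0.0173 to 0.0571 for Atf4 and -0.00834 to 0.212 for Ddit3. The RANKL difference of the kinase ratio ranged from -0.296 to 0.332 for Eif2ak1, -0.0978 to 0.701 for Eif2ak3 and -0.387 to 0.488 for Eif2ak4. A lone remaining library is assumed to vary like the other groups.

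Without the block edgeR on recovered reads called 410 genes without RANKL, 4929 after RANKL, 7206 and 6911 with RANKL in WT and Mir182ΔM/ΔM cells and 2237 for the interaction, of 12561. In Mir182mTg cells edgeR called 31 genes, 1835 with the block, and DESeq2 124. The cause of lost calls was not tested.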
